A study of Mus musculus with 2 samples.

Results

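The cells described here are those of the heme-exposed library that carried a day 4 or a day 5 hashtag, and the comparison is day 5 against day 4 within that library. A barcode was kept when the authors' hashtag call gave it as a singlet, when it held 500 or more detected genes and when fewer than 15% of its UMIs (unique molecular identifiers, 1 per captured transcript) came from mitochondrial genes. This left 2999 of 3143 singlets on day 4 and 2665 of 2780 on day 5, together 5664 of the 25221 cells that passed the same filter in the whole series. All genes were compared.

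Lineage-depleted bone marrow cells of C57BL/6 mice aged 8 to 10 weeks were cultured with recombinant mouse GM-CSF at 20 ng/ml. On culture day 3, heme-albumin at 300 µM was added to the heme cultures and albumin alone to the control cultures, and cells were harvested on days 4, 5 and 7, with days 0 and 3 before the addition. The 5 harvests of each treatment carried different antibody hashtags and were pooled into 1 droplet library, so the heme series and the control series are 1 library each. According to the study's description, cultures were started on different days and harvested together, so that each day is a separate culture, and the day of culture and the culture itself cannot be told apart. The labels do not say how many mice supplied the marrow.

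GM-CSF drives marrow progenitors in culture towards neutrophils, macrophages and dendritic cells, and the harvest holds all stages of these lineages side by side. Developing neutrophils make their granule proteins in a fixed order, the primary granules as promyelocytes, the secondary granules as myelocytes and the gelatinase granules last. Cells that take up heme break it down with heme oxygenase, store the released iron in ferritin or export it through ferroportin, and heme lifts the repressor BACH1 from genes that the oxidant-responsive factor NRF2 switches on.

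There was 1 culture and 1 library per day, so no test between days was possible. UMIs were summed over the cells of a day and scaled to the same total on every day (CPM), and the ratio of the 2 days is given with its exact 95% interval for a pair of Poisson counts, which covers counting error only and not the spread between cultures. A gene is called higher or lower, or said to have risen or fallen, when its ratio passed 1.5-fold and the interval left out 1, among genes with 10 CPM or more on at least 1 of both days. A summed level cannot tell a change in the number of cells that hold a transcript from a change in its amount per cell.

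The median cell held 11433 UMIs on day 4 and 12437 on day 5, and the summed counts were 46587383 and 51633887. Cells with more than 5000 detected genes made up 17.2% of day 4 and 28.3% of day 5, and ribosomal protein genes took 12.6% and 14.3% of the UMIs. The heme library shared 112 barcodes with the control library, 48 of them kept, and hashtag calls removed 233 barcodes that mixed day 4 with day 5.

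Of 8063 genes compared, 399 (4.95%) were higher and 537 (6.66%) lower on day 5. At 2-fold the numbers were 121 and 182. The median log2 ratio over all genes was 0.01. In the control library, over the same pair of days, 438 of 7541 genes were higher (5.81%) and 262 lower (3.47%).

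**Figure D1:**
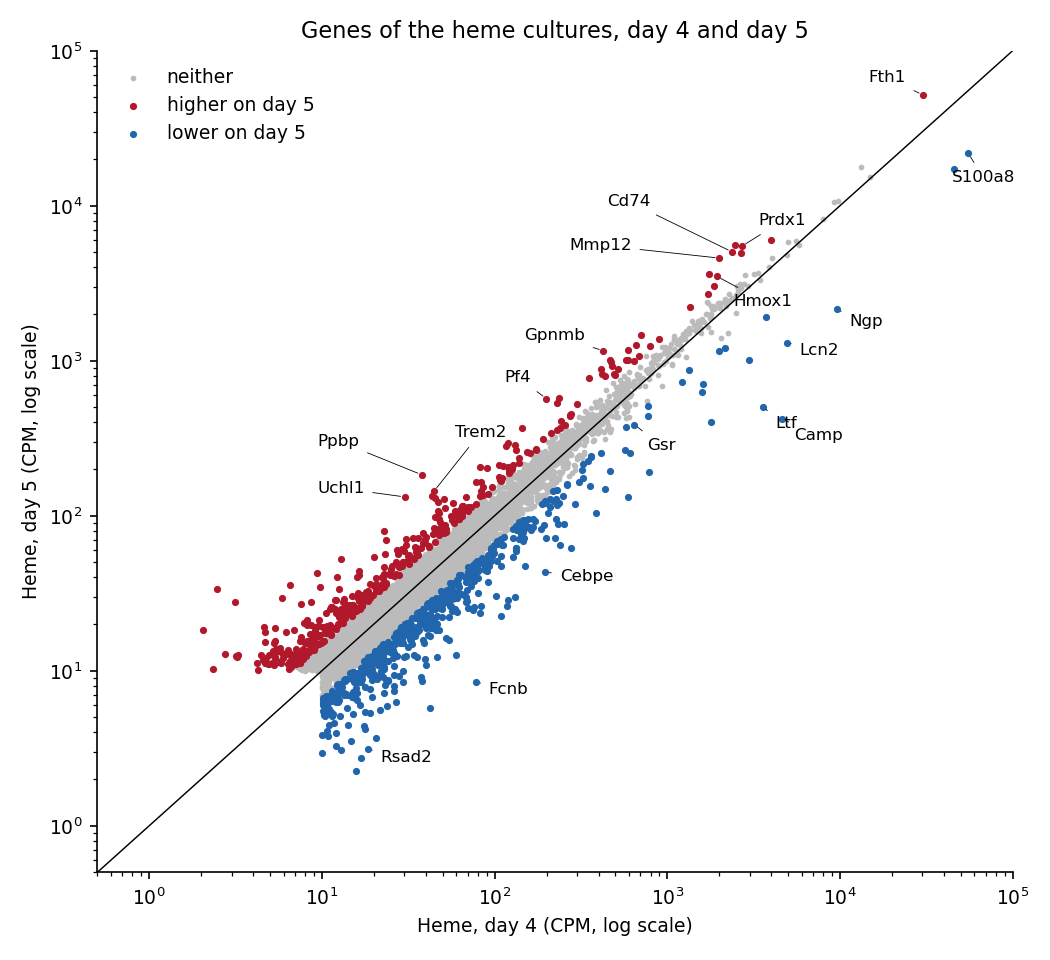
Each point is 1 gene of the heme library, with its level on day 4 on the horizontal axis and on day 5 on the vertical axis, both in CPM on a log scale. The 399 genes called higher are red, the 537 called lower are blue and the others grey. Camp, Ltf and Fcnb lie far below the diagonal, and Ppbp, Uchl1 and Trem2 far above it.

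Among the genes that handle heme, Hmox1, Blvrb and Slc48a1 rose further from day 4 to day 5. Of 13 genes listed for heme uptake, breakdown and export, 9 reached the floor of 10 CPM. Among these, 3 were called higher (4.95% of all genes were) and 0 lower (6.66%), and the list's median log2 ratio was 0.30 against 0.01 over all genes. Hmox1 (8:75093621-75100589, plus strand, GRCm38), the inducible heme oxygenase, stood at 124 CPM on day 0 and 150.1 on day 3. It reached 1945 CPM by day 4, 3497 by day 5 and 5166 by day 7. Its ratio of day 5 to day 4 was 1.80 (95% interval 1.78 to 1.81), while in the control library it was 62.3 CPM on day 4 and 62.6 on day 5. The day 0 and day 3 cells of the control library held 1.84 and 36.0 CPM, so the cells of the heme library that had met no heme in culture carried more Hmox1 than those of the control library. The part of transcripts shared within the droplet pool in this excess was not tested, and these day 0 and day 3 levels serve as the background of the heme library. With every cell thinned to 2500 UMIs, 77.0% of day 4 cells and 89.4% of day 5 cells held an Hmox1 UMI, against 28.1% on day 0 and 31.6% on day 3 (unthinned 96.9% and 98.0% on days 4 and 5, 72.2% and 89.0% on days 0 and 3). The thinning left out 96 day 4, 127 day 5, 143 day 0 and 17 day 3 cells.

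Blvrb, a biliverdin reductase that acts after heme oxygenase, rose from 301 to 523 CPM (ratio 1.74, 1.70 to 1.78). Slc48a1, the transporter that brings heme out of the phagolysosome, rose from 239 to 370.2 CPM (1.55, 1.51 to 1.59). It had been at 68.8 CPM on day 3. The remaining members stayed short of 1.5-fold. The other biliverdin reductase, Blvra, was at 45.1 and 55.4 CPM, the heme exporter Flvcr1 at 19.5 and 22.2, and Bach1, the heme-sensing repressor, at 84.8 and 86.6. Spic, a transcription factor of iron-recycling macrophages, was at 26.2 CPM on day 4 and 28.5 on day 5 (1.09, 1.01 to 1.18), far above its 1.958 CPM on day 3 and below its 92.7 CPM on day 7. The control library held 0.41 and 0.38 CPM of Spic on days 4 and 5.

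Ferritin moved with the heme genes, whereas the iron list as a whole did not. Of its 17 members at the floor, Fth1 alone was called higher (4.95% of all genes were) and Lcn2 alone lower (6.66%). The list's median log2 ratio was -0.04. Fth1, the ferritin heavy chain, rose from 30228 to 51894 CPM (1.72, 1.71 to 1.72), which is over 5% of all UMIs of the day, after 6629 CPM on day 3. In the control library Fth1 also rose by the day, from 9781 to 14668 CPM. Ftl1, the light chain, went from 13235 to 17775 CPM (1.34, 1.34 to 1.35), short of the call. Both ferritin genes have processed copies elsewhere in the genome, so that their counts are uncertain to that extent. Slc40a1, the iron exporter ferroportin, was at 158 and 202 CPM (1.28, 1.24 to 1.32) and reached 419 on day 7. In the control library it went the other way, from 35.2 to 21.2 CPM. Tfrc, the transferrin receptor that imports iron, was at 49.1 and 37.3 CPM.

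Genes of the oxidant response had no common direction from day 4 to day 5. Of 32 listed members at the floor, 3 were higher (4.95% of all genes were) and 3 lower (6.66%). The median log2 ratio was 0.01, as over all genes, and 17 members were above 0 and 15 below it. Prdx1 (4:116685544-116700822, plus strand), a peroxiredoxin, rose from 2716 to 5497 CPM (2.02, 2.01 to 2.04) and stayed there on day 7, at 5459. Me1, the malic enzyme that supplies NADPH, rose from 20.7 to 36.4 CPM (1.76, 1.62 to 1.90), and Gss, glutathione synthetase, from 15.5 to 24.7 CPM (1.60, 1.46 to 1.75). Lower on day 5 were Gsr, glutathione reductase, from 644 to 388 CPM (0.602, 0.591 to 0.613), G6pdx, the entry enzyme of the pentose phosphate pathway, from 197 to 124 CPM (0.628, 0.608 to 0.649), and Tkt, transketolase of the same pathway, from 772 to 510.5 CPM (0.662, 0.651 to 0.672). Gsr fell by the same measure in the control library, from 378 to 229.6 CPM. In 4 of the 32 members the heme change lay above the control change by 1.5-fold or more, where 1.27% of all genes did. In 0 of them it lay below by that much, where 3.96% of all genes did.

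Other classical members were not called between day 4 and day 5, and those given with a day 3 level had climbed by day 4. Txnrd1, thioredoxin reductase, was at 166 CPM on day 3, 291 on day 4 and 293 on day 5. Gclm, the modifier subunit of glutamate-cysteine ligase, was at 229, 858 and 1033 CPM on the same days, and Srxn1, sulfiredoxin, at 23.1, 94.3 and 110.5. Nqo1, a quinone reductase, was at 71.2 and 100.1 CPM on days 4 and 5 (1.41, 1.35 to 1.47), and catalase, Cat, at 177 and 201. Slc7a11, the cystine importer, was at 60.4 CPM on day 3, 597 on day 4 and 512 on day 5. The 3 metallothionein genes and the 10 heat shock chaperones at the floor had 0 calls in either direction, with median log2 ratios of 0.22 and 0.14.

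The proximal promoters of a pair of these genes are shown because the 9-letter core of the antioxidant response element, TGACNNNGC on either strand, was found in both, while 1 gene rose past the call and the other did not. The windows run from 250 bases before to 50 bases after the RefSeq start, on build GRCm38.p6, and the capitals mark the core. Prdx1 is at 4:116685349-116685648 on the plus strand, with the match starting 133 bases before the start site, and Gclm at 3:122245307-122245606 on the plus strand, with the match 134 bases before it. Both matches read on the opposite strand.
Prdx1: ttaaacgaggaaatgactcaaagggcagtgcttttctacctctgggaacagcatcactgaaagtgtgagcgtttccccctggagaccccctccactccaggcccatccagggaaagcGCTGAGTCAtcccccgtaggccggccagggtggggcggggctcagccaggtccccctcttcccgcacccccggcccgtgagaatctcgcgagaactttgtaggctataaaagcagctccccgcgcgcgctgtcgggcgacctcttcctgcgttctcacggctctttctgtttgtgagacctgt
Gclm: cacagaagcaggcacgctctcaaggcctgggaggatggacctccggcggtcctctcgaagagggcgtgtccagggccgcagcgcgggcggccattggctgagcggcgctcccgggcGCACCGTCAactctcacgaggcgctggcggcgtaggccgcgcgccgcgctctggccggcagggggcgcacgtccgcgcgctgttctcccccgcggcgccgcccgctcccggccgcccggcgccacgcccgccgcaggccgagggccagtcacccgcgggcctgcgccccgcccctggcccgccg
Of 28 oxidant-response genes with a window, 11 held the core, as did 3 of 7 heme genes and 1 of 12 iron genes, against 13.99% of all 27025 genes with a window. The 3 heme genes were Blvra, Flvcr1 and Pgrmc1, none of which was called. Of the heme genes that rose, Blvrb had no match, and Hmox1 and Slc48a1 had no window. A match of letters is a description and no evidence of binding.

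To see whether these levels moved inside groups of like cells, the cells of both days were clustered without the heme, iron and oxidant genes. This gave 17 clusters, of which 14 held 50 or more cells on each day. Hmox1 was higher on day 5 in 7 of the 14 and lower in 5, taking a counting interval that left out 1 as the mark, with ratios from 0.88 to 1.40. It was highest in cluster 4, at 5206 CPM on day 4 and 5731 on day 5, and lowest in cluster 8, at 355 and 317. Had each cluster kept its day 4 level while the share of UMIs in each cluster moved as observed, Hmox1 would have been at 3184 CPM on day 5, against the 3497 observed. By the same arithmetic Fth1 would have been at 46966 CPM against 51894, Slc48a1 at 321 against 370.2, and Prdx1 at 5437 against 5497. In each of the 14 clusters the Hmox1 ratio lay under the 1.80 of the whole culture. For Prdx1 the cluster ratios ran from 0.55 to 1.43, and for Fth1 from 0.74 to 1.22.

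Gsr was lower on day 5 in 14 of the 14 clusters, with ratios from 0.67 to 0.93. Slc7a11 was lower in 12 and higher in 0, and Txnrd1 lower in 10 and higher in 0. The summed Txnrd1 level, which was level between days, would have been 425 CPM on day 5 at the day 4 cluster levels, against 293 observed, and Slc7a11 would have been 704 against 512. In most clusters day 5 cells therefore held less Txnrd1 and Slc7a11 than day 4 cells, a difference that the summed values hid for Txnrd1. Spic was lower in 4 clusters and higher in 1, and Fth1 higher in 12 and lower in 2.

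**Figure D2:**
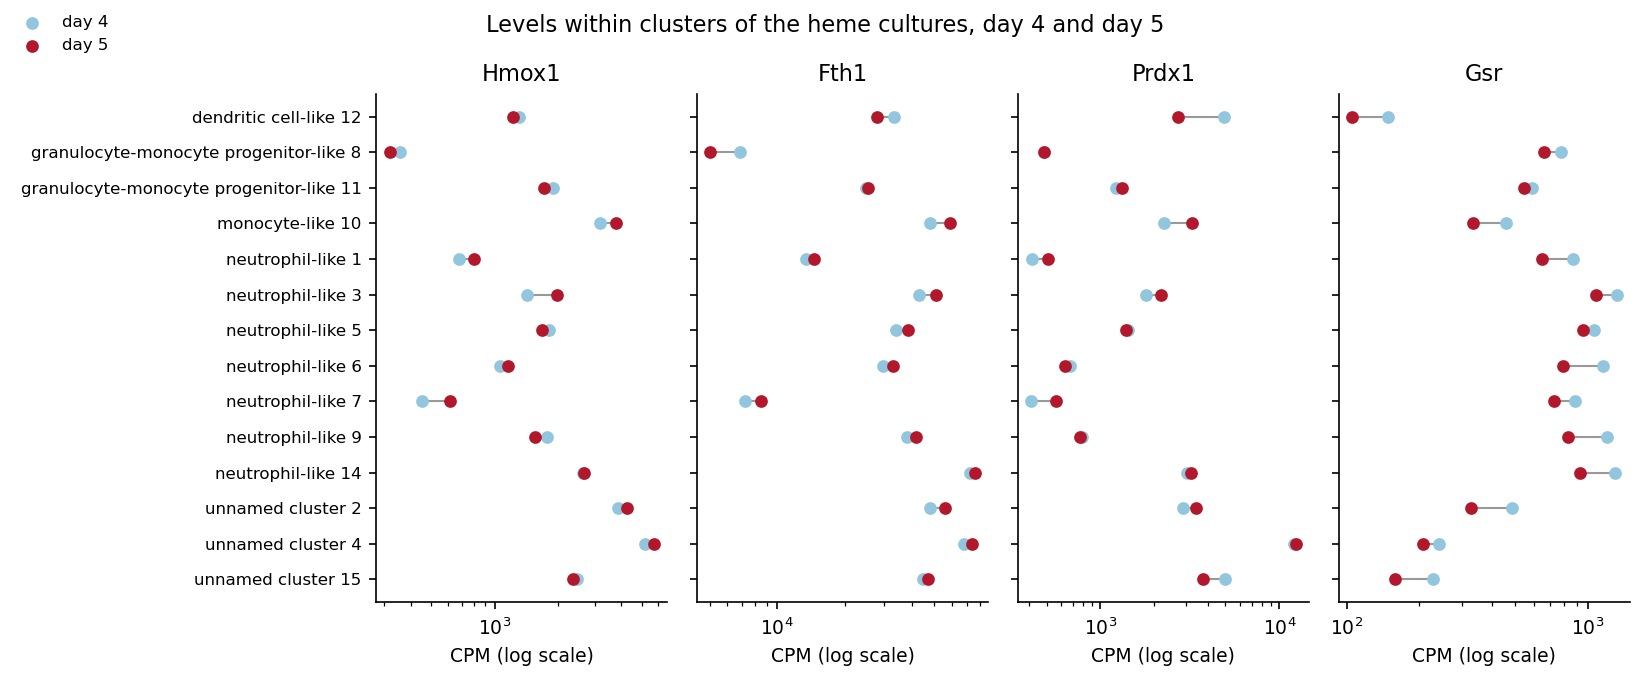
Levels of Hmox1, Fth1, Prdx1 and Gsr in CPM (horizontal axes, log scale) in each of the 14 clusters of the heme library with 50 or more cells on each day (rows), with day 4 in light blue, day 5 in red and a line between them. The red Hmox1 points lie on either side of the blue ones, the red Fth1 points to the right in 12 clusters, and the red Gsr points to the left in all 14.

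Among genes with 50 CPM or more, the deepest falls included neutrophil granule genes. In the list of secondary granule genes 9 of 10 members fell (6.66% of all genes did) and 0 rose (4.95%). The median log2 ratio was -1.98. In the primary granule list 5 of 6 fell and 0 rose, with a median of -1.24. The secondary granule median was -1.32 with cells thinned to 2500 UMIs and the primary one -0.64, and among cells with a hashtag share of 80% or more they were -2.53 and -2.05. Camp (9:109847379-109849617, minus strand), the cathelicidin antimicrobial peptide, fell from 4618 CPM on day 4 to 421 on day 5, a ratio of 0.0912 (0.0899 to 0.0925). It had been at 161 CPM on day 0 and 3333 on day 3, and stayed at 423 on day 7. After thinning, 67.9% of day 4 cells and 33.5% of day 5 cells held a Camp UMI, with 17.6% on day 0 (unthinned 89.8%, 74.3% and 54.6%). Ltf (9:111019271-111042767, plus strand), lactoferrin, fell from 3562 to 503 CPM (0.141, 0.139 to 0.143), and Ngp (9:110419747-110423012, plus strand), neutrophilic granule protein, from 9583 to 2142 (0.224, 0.222 to 0.225). Lcn2, lipocalin 2, which binds bacterial iron carriers and stands in the iron list too, fell from 4929 to 1309 CPM (0.266, 0.263 to 0.268).

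Camp, Ltf and Ngp fell in the control library too, by less. Camp went from 5814 to 1686 CPM there, Ltf from 3714 to 1197 and Ngp from 6455 to 3151. Of the 10 secondary granule genes, 7 had a heme change below the control change by 1.5-fold or more, the level at which 326 of 8237 genes stood (3.96%). The median log2 ratio of the list was -1.16 in the control library. Anxa1, annexin A1, was the 1 member not called, at 932 and 685 CPM. Of the 6 primary granule genes, 1 had a heme change below the control change by that measure, namely Fcnb. In 3 it lay above, where 1.27% of all genes did. Elane, neutrophil elastase, fell from 146 to 68.6 CPM with heme and from 694 to 175 in control, and Mpo, myeloperoxidase, was at 36.0 and 30.3 CPM with heme (0.841, 0.784 to 0.901) but fell from 128 to 36.6 in control. Much of the primary granule transcript of the heme library had gone before day 4, since Mpo was at 1866 CPM on day 0 and 507 on day 3 and Elane at 1303 and 1639.

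Promoters of 3 fallen secondary granule genes are shown for the C/EBP motif TTGCNNAA (searched on both strands and chosen after the values were seen), the recognition pattern of the factor family that includes Cebpe. Ltf is at 9:111019042-111019341 on the plus strand, Ngp at 9:110419558-110419857 on the plus strand and Lcn2 at 2:32387690-32387989 on the minus strand. The capitals mark the matches, of which Ngp has 2.
Ltf: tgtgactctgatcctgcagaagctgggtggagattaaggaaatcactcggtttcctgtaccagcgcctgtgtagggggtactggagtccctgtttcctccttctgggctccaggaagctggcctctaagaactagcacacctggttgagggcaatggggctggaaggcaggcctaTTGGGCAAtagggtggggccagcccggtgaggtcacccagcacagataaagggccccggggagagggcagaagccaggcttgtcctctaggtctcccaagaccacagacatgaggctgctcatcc
Ngp: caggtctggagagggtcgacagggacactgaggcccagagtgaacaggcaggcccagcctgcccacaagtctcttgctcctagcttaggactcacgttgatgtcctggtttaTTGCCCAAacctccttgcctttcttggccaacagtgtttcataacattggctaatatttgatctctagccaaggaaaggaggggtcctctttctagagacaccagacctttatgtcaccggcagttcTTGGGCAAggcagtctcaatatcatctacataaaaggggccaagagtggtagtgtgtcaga
Lcn2: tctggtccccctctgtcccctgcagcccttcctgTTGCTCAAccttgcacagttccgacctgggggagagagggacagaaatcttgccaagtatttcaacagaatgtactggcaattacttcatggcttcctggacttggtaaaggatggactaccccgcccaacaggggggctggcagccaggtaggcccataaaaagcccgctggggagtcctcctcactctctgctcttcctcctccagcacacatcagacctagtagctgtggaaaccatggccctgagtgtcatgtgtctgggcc
The motif was found in 4 of 9 secondary granule genes with a window, 1 of them Anxa1, which was not called, and in 12.2% of all genes. Of all genes lower on day 5 with a window, 11.6% held it, and the Camp window held none. Cebpe (14:54710360-54712174), the factor that directs the secondary granule programme, was itself among the fallen genes, from 196 to 43.2 CPM (0.220, 0.210 to 0.231), after 253 CPM on day 3. In control it fell from 254 to 92.5. Gfi1, a repressor that acts in the same lineage, fell from 14.1 to 4.45 CPM.

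Late neutrophil genes were divided. Of 17 members of the mature neutrophil and gelatinase granule list, 2 rose (4.95% of all genes did) and 5 fell (6.66%). The list's median log2 ratio was -0.53. S100a8, a subunit of calprotectin, fell from 55322 to 21876 CPM (0.395, 0.395 to 0.396), and its partner S100a9 from 45936 to 17375. Retnlg, a neutrophil resistin-like gene, fell from 83.7 to 26.3 CPM. Mmp8 (9:7558456-7568485), the neutrophil collagenase, rose from 663 to 1260.4 CPM (1.90, 1.88 to 1.93), whereas it was at 377 and 335 in control. Its heme change exceeded the control change by 1.10 on the log2 scale, a size past the 1.5-fold mark that 105 of 8237 genes (1.27%) reached upwards. Clec4d, a C-type lectin receptor, rose from 191 to 314 CPM, and Cxcr2, the chemokine receptor of mature neutrophils, was at 28.1 and 26.4.

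Among the 12 lowest ratios of genes with 50 CPM or more were, beside Camp, Fcnb, Ltf and Cebpe, further genes of the neutrophil lineage. Ly6g, the antigen of the Gr-1 antibody, fell from 118 to 26.2 CPM, Pglyrp1, a peptidoglycan-binding granule protein, from 1786 to 404, and Itgb2l, an integrin subunit, from 109 to 22.5. Fcnb, ficolin B, fell from 78.5 to 8.46 CPM (0.108, 0.0975 to 0.119), and in control from 106 to 42.0. Lmo1, a transcription cofactor, went from 59.8 to 12.7, and Lipg, endothelial lipase, from 279 to 62.1. Ifitm6 fell from 589 to 132 CPM and Chil1 from 131 to 29.9, both members of families with similar copies.

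Proliferation genes fell as a block in direction. All 28 cell cycle genes at the floor had a log2 ratio below 0, and the median was -0.62. Of these 19 were called lower, beside 6.66% of all genes. Mki67, the proliferation antigen, fell from 237 to 122 CPM (0.513, 0.497 to 0.529), Top2a, the topoisomerase of dividing cells, from 327 to 175 (0.535, 0.521 to 0.549), and Hmgb2, a chromatin protein of cycling cells, from 1590.0 to 628 (0.395, 0.390 to 0.400). After thinning, a Mki67 UMI was found in 30.4% of day 4 and 16.6% of day 5 cells. In the control library 2 of the 28 were called lower and the median was -0.34, and 0 of the 28 had a change that differed from control by 1.5-fold. Mki67 went from 185 to 121 CPM there. Without the 10 cells of each day that held the most UMIs of a gene, all 28 had a heme ratio below their control ratio. Phgdh, the first enzyme of serine synthesis, fell from 143 to 75.9 CPM with heme and from 147 to 74.1 in control.

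**Figure D3:**
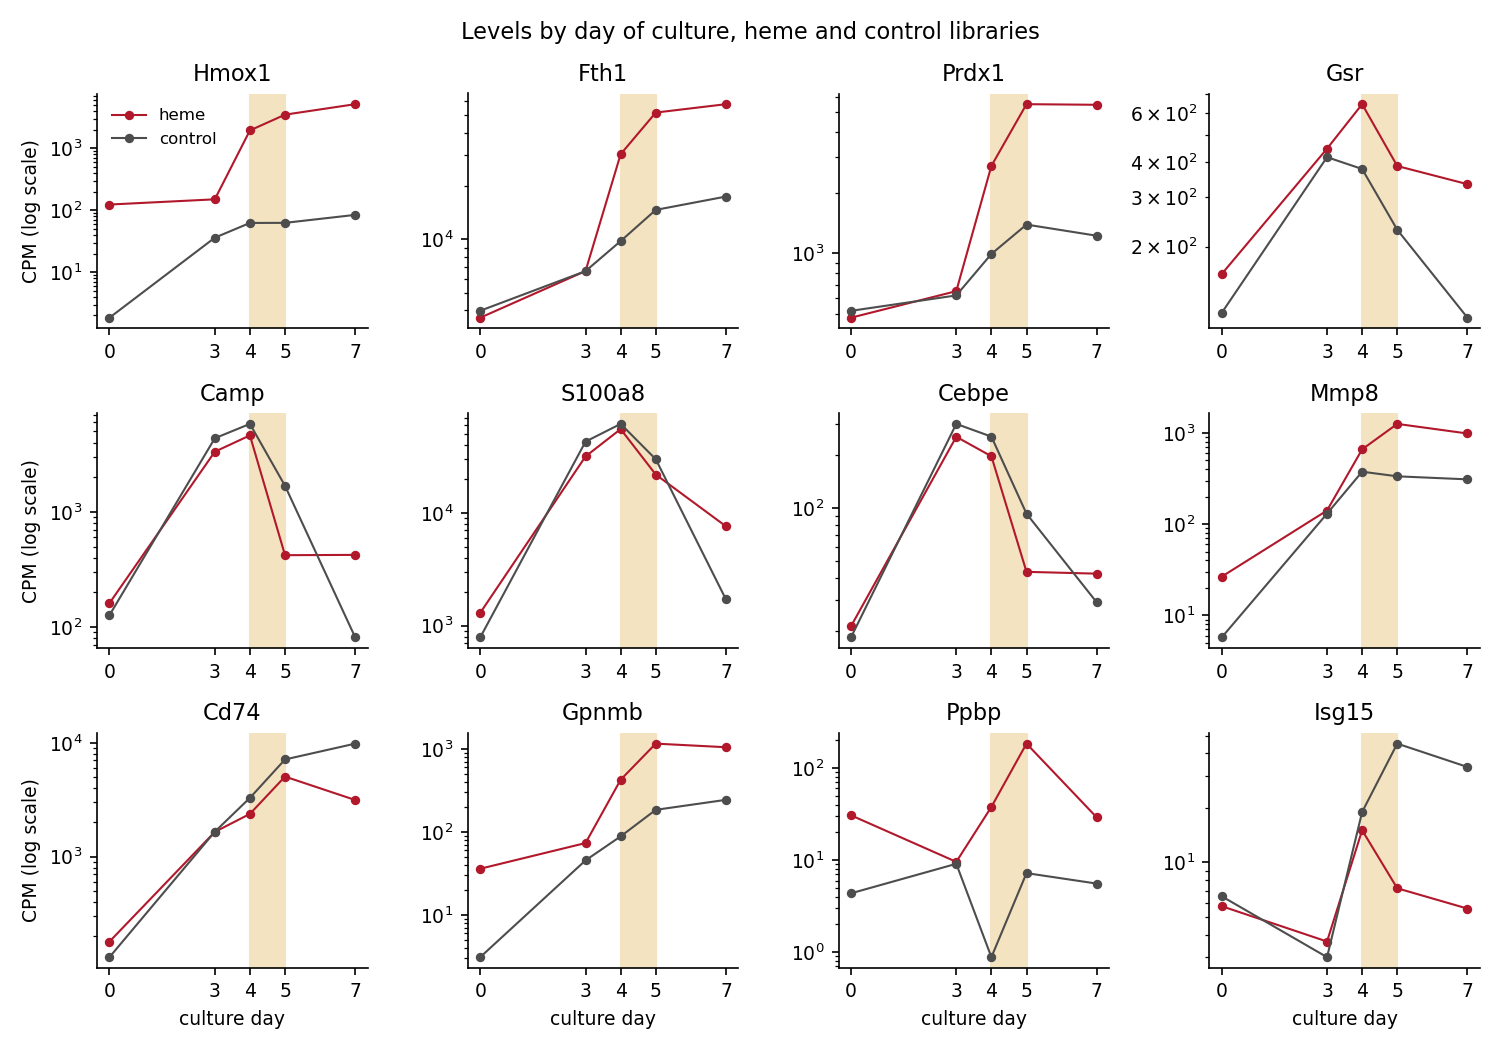
Levels of 12 genes in the 5 harvests, with the day of culture on the horizontal axis and CPM on a log scale on the vertical axis, heme library in red, control library in grey, and the interval from day 4 to day 5 shaded. Each point is 1 culture. Between day 4 and day 5, Camp and Cebpe drop in both libraries, Hmox1 rises with heme alone, and Isg15 moves in opposite directions.

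Macrophage genes rose. Of 14 members of the macrophage list at the floor, 9 were higher (4.95% of all genes were) and 0 lower (6.66%). The median log2 ratio was 0.73, beside a control median of 0.72. Gpnmb (6:49036546-49070929), a lysosomal membrane glycoprotein of lipid- and debris-laden macrophages, rose from 426 to 1162 CPM (2.73, 2.68 to 2.77), with 88.5 and 185 CPM in control. Trem2, a lipid-sensing receptor, rose from 44.6 to 144 CPM (3.23, 3.08 to 3.39), Msr1, the scavenger receptor A, from 90.2 to 203 (2.25, 2.17 to 2.33), and Csf1r, the receptor for M-CSF, from 122 to 196 (1.61, 1.56 to 1.66). Marco, another scavenger receptor, was called higher at a low level, from 12.1 to 23.6 CPM, over 7.71 and 7.56 on days 0 and 3, and its large increase came later, to 468 CPM on day 7. C1qb, a complement chain, was at 4.46 and 12.5 CPM, against 14.3 and 48.6 in control.

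Some of the genes that macrophages use on matrix, lipid and lysosomal cargo rose as well. Over all genes 4.95% rose and 6.66% fell. In the alternative and matrix-remodelling list 6 of 10 rose and 1 fell. Mmp12, the macrophage elastase, rose from 1998 to 4598 CPM (2.30, 2.28 to 2.32), and Igf1, a growth factor, from 2.34 to 10.3, while Chil3, which neutrophil precursors also make, fell from 2974 to 1006. In the lipid list 4 of 11 rose and 0 fell. Cd36, a fatty acid and lipoprotein scavenger, rose from 230.0 to 536 CPM (2.33, 2.28 to 2.38), Fabp5, a fatty acid carrier, from 578 to 1004, and Lpl, lipoprotein lipase, from 1871 to 3017. In the lysosome list 4 of 19 rose and 0 fell. Ctsl, cathepsin L, rose from 119 to 294 CPM (2.47, 2.39 to 2.55), with 82.0 and 105 in control, and Ctss, cathepsin S, which trims the invariant chain, from 238 to 576. The medians of these 3 lists were 0.71, 0.50 and 0.38 with heme and 0.20, 0.45 and 0.35 in control.

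Some genes of colony-stimulating factor receptors and their feedback rose as well. Of 12 listed colony-stimulating factor receptor and feedback genes, 6 were higher (4.95% of all genes were) and 0 lower (6.66%). Csf2rb, the shared beta chain of the GM-CSF receptor, rose from 791 to 1240.4 CPM (1.57, 1.55 to 1.59), its near copy Csf2rb2 from 138 to 237, and the feedback inhibitor Socs1 from 68.2 to 132. Chemokine genes that rose were Ccl9, from 414 to 879 CPM, Ccl6, from 2689 to 4989, and Ccl2, the monocyte attractant, from 44.9 to 98.6. Il1rn, the interleukin 1 receptor antagonist, fell from 209.7 to 128 CPM, and Osm, oncostatin M, from 54.0 to 28.5. In the whole inflammatory list 5 of 18 rose and 2 fell.

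Several further lists are given here beside the 4.95% of all genes called higher and 6.66% called lower. Of 10 monocyte genes 1 rose, S100a4, from 275 to 448 CPM, and 3 fell, among them Ly6c2, the antigen of inflammatory monocytes, from 1603 to 706. Of 23 myeloid transcription factors 3 rose and 3 fell. Irf4, a factor of dendritic cells and macrophages, rose from 31.9 to 55.7 CPM, and Spi1, the factor PU.1 that all these lineages need, was at 392 and 388. The integrated stress response list had 2 higher and 1 lower of 9, with Atf3, a stress-induced factor, from 107 to 169 CPM. Glycolysis genes had 2 lower and 0 higher of 18, cholesterol synthesis genes 1 lower and 0 higher of 20, with Fdps, a mevalonate pathway enzyme, from 172 to 92.6 CPM, and toll-like and Fc receptors 1 in each direction of 12.

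MHC class II genes rose by about the same median ratio with and without heme. With heme 6 of the 9 at the floor rose (4.95% of all genes did) and 0 fell (6.66%), with a median log2 ratio of 0.95. In control 8 rose, with a median of 0.96. Single members differed. In 1 of the 9 the heme change lay above the control change by 1.5-fold or more, and in 2 below it, against 1.27% and 3.96% of all genes. Cd74, the invariant chain that guides class II molecules, rose from 2370.3 to 5045 CPM (2.13, 2.11 to 2.14), and in control from 3278 to 7139. H2-Ab1, a class II beta chain, rose from 481 to 931 CPM (1.94, 1.91 to 1.97), and in control from 769 to 1440.2. H2-DMb1, of the peptide-loading molecule, rose from 82.0 to 207 CPM (2.53, 2.44 to 2.62), and in control from 129 to 189.5. On day 7 the heme library had come down to 3140.3 CPM of Cd74. The class I list had 0 calls in 10 genes, with a median of 0.34.

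Dendritic cell genes rose less than in control. Of 19 members, 8 rose (4.95% of all genes did) and 1 fell (6.66%) with heme, with a median log2 ratio of 0.42. In control 15 rose (5.81% of all genes did), with a median of 1.01. In 9 of the 19 the heme change lay below the control change by 1.5-fold or more, where 3.96% of all genes did. Ccr7, the receptor that takes dendritic cells to lymph nodes, rose from 34.9 to 58.2 CPM (1.67, 1.57 to 1.77), and in control from 19.4 to 67.7. Ccl22, a T cell attractant, was at 248 and 312 CPM (1.26, 1.23 to 1.29), against 169 and 505 in control, and Fscn1, the actin bundler of dendrites, at 40.1 and 45.2, against 22.7 and 57.1. The list summed to 2259 CPM (day 4) and 3069 CPM (day 5) with heme, below the control sums of 3503 and 7543 CPM. Ccl5, a T cell and monocyte attractant, rose from 50.9 to 127 CPM with heme and from 20.1 to 218 in control. The 10 cells with the most Ccl5 held 51.4% of its UMIs on day 4 and 32.4% on day 5, and without them it went from 24.8 to 86.2 CPM. By day 7 Ccr7 was at 19.9 CPM and Ccl22 at 65.3 with heme.

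**Figure D4:**
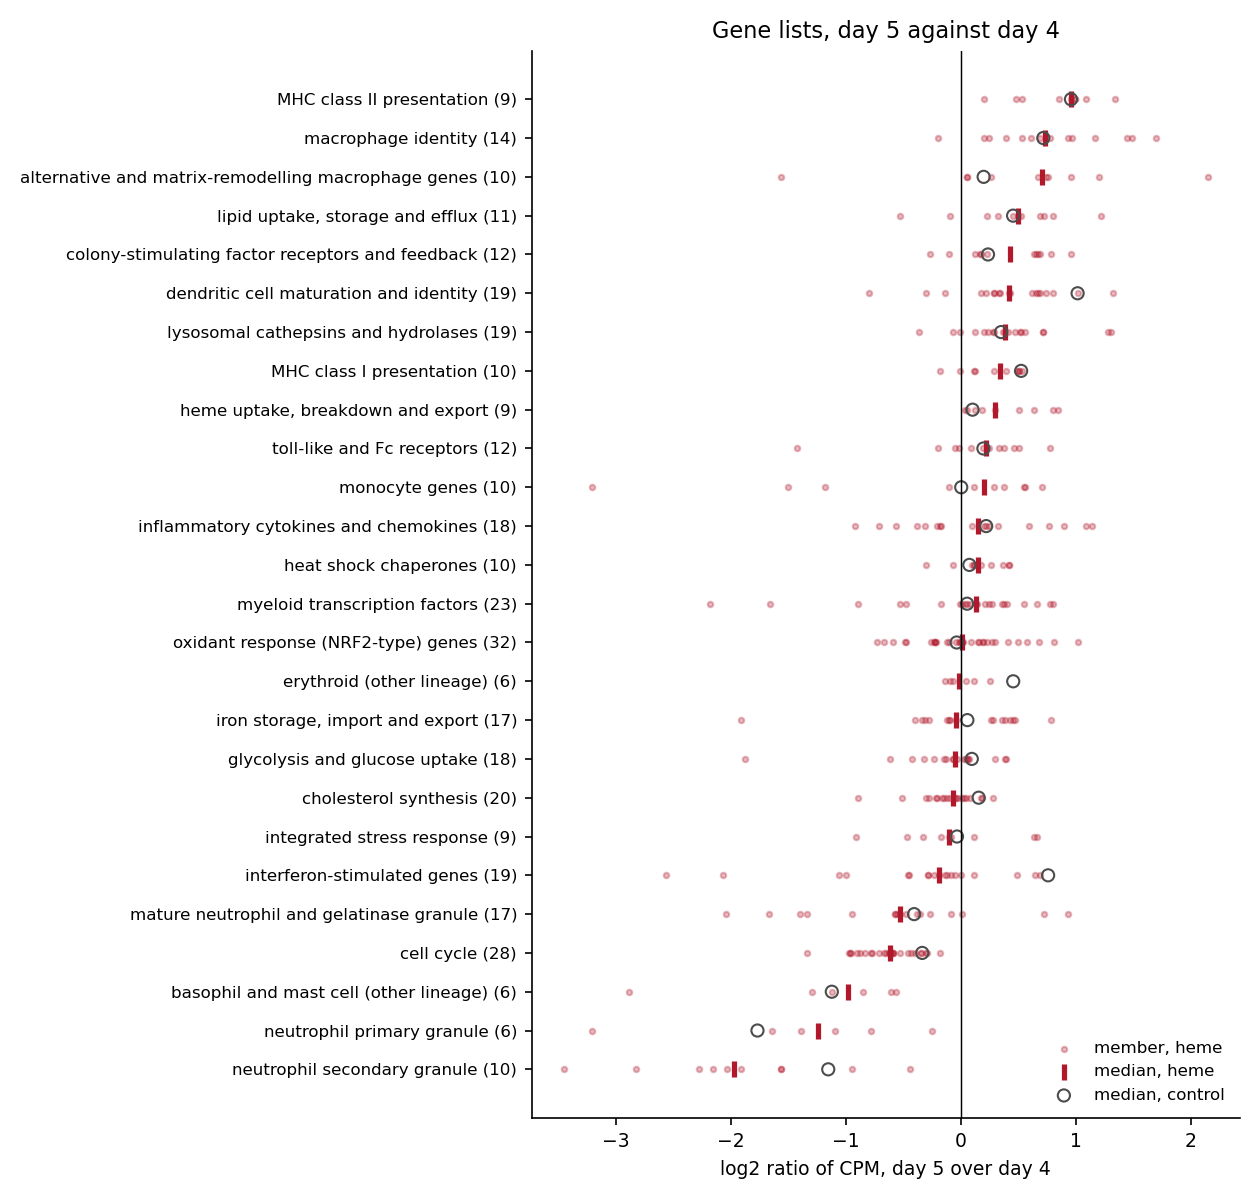
Log2 ratio of day 5 to day 4 in the heme library for each member (dots) of the 26 gene lists with 5 or more members at the floor, with the list's median in the heme library (bar) and in the control library (open circle). The secondary granule list has the lowest heme median, -1.98, and the MHC class II list the highest, 0.95, and the heme and control medians stand apart for the interferon list, at -0.19 and 0.76.

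Interferon-stimulated genes moved apart between the libraries. Of 19 members at the floor, 2 rose (4.95% of all genes did) and 4 fell (6.66%) with heme, with a median log2 ratio of -0.19. In control 14 rose, and the median was 0.76. In 17 of the 19 the heme change lay below the control change by 1.5-fold or more, where 3.96% of all genes did. Only 4 genes of the whole comparison were called in opposite directions in the 2 libraries, and 3 of them, Rsad2, Isg15 and Oas3, are in this list. The fourth is Apol7c, at 19.3 and 11.5 CPM with heme. Rsad2 (12:26442746-26456452), viperin, which makes an antiviral nucleotide, fell from 18.5 to 3.12 CPM (0.169, 0.142 to 0.200) with heme and rose from 5.27 to 15.0 in control. Isg15, a ubiquitin-like modifier, fell from 15.1 to 7.20 CPM (0.478, 0.421 to 0.543) and rose from 19.0 to 45.3 in control. Oas3, a sensor of double-stranded RNA, fell from 16.9 to 8.42 CPM (0.498, 0.442 to 0.561) and rose from 11.6 to 20.4 in control. Gbp2, a guanylate-binding protein, rose in both, from 18.9 to 30.3 CPM with heme.

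The day 4 values of Rsad2 and Isg15 rested on few cells. Of 862 Rsad2 UMIs on day 4, a single cell held 307, or 35.6%, and the 10 richest cells held 74.1%. Without the 10 richest cells of each day Rsad2 went from 4.79 to 2.09 CPM, a log2 ratio of -1.19 in place of -2.57. For Isg15 1 cell held 31.3% of the day 4 UMIs, and without the 10 richest cells it went from 7.86 to 5.97 CPM, a ratio of 0.76 that no longer passed 1.5-fold. Oas3 was spread over 582 day 4 cells, the 10 richest of which held 6.35% of its UMIs, and its log2 ratio was -1.02 without them. With every cell thinned to 2500 UMIs, however, Oas3 was at -0.22, short of 1.5-fold. The list as a whole kept its place under that exclusion, with a median of -0.17 against 0.81 in control and all 19 members below their control ratio.

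Promoters of Isg15 and Rsad2 are shown with the core of the interferon-stimulated response element in capitals, a pair of short purine repeats with a spacer that was searched on both strands, because these genes turned in opposite directions in the 2 libraries. Isg15 is at 4:156200769-156201068 on the minus strand, with 3 overlapping matches, and Rsad2 at 12:26456403-26456702 on the minus strand, with 1 match that reads on the opposite strand.
Isg15: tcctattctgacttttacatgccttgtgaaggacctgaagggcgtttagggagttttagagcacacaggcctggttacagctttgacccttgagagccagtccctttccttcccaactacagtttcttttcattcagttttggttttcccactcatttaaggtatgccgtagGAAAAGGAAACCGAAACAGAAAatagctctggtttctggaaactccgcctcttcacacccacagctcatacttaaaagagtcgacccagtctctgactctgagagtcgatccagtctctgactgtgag
Rsad2: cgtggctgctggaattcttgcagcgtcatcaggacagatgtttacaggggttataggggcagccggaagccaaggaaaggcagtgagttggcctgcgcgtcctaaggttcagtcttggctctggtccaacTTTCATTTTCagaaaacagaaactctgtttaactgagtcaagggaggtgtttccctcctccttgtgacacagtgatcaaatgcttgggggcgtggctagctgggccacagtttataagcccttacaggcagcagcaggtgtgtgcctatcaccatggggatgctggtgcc
The core was found in 10 of 15 listed interferon genes with a window and in 3.99% of all genes.

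Among genes with 50 CPM or more, the steepest rise was that of Ppbp, whose product is a platelet chemokine. Ppbp (5:90768518-90770063) stood at 37.8 CPM on day 4 and 184 on day 5, a ratio of 4.86 (4.62 to 5.12). It was at 9.57 CPM on day 3 and back at 29.1 by day 7, and at 0.88 and 7.22 on the same pair of days in control. Pf4, platelet factor 4, rose from 199 to 569.8 CPM (2.86, 2.79 to 2.92) and was at 451 on day 0. The 5 other megakaryocyte markers were near 0, the highest being Itga2b at 5.82 and 5.17 CPM, followed by Treml1 at 1.27 and 1.72. On day 4 the 10 richest cells held 59.3% of the Ppbp and 57.2% of the Pf4 UMIs, and without them the ratios were 7.83 and 5.51. Other genes among the 12 highest were Uchl1, a deubiquitinase, from 30.2 to 132 CPM (4.39, 4.14 to 4.65), Emp2, an epithelial membrane protein, from 12.9 to 52.8 (4.09, 3.75 to 4.48), Gstm2, a glutathione transferase, from 23.03 to 80.01 (3.47, 3.25 to 3.72), and Ly6a, the Sca-1 antigen, from 43.5 to 134. Gstm2 was at 5.87 and 9.19 CPM in control, and its change exceeded that of control by 1.15 on the log2 scale. Il7r, the interleukin 7 receptor and the 1 lymphoid marker at the floor, rose from 46.7 to 108 CPM.

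Most basophil and mast cell genes at the floor were called lower, and no red cell gene was called. The basophil and mast cell list of 12 genes went from 169.6 to 77.5 CPM in sum. Of the 6 at the floor 5 were lower (6.66% of all genes were), among them Mcpt8, a basophil protease, from 41.4 to 16.9. The 10 cells with the most Mcpt8 held 81.2% of its day 4 UMIs, and without them it was at 7.77 and 6.82 CPM, short of 1.5-fold. Prss34, at a ratio of 0.74 without its 10 richest cells, was short of it too. The list's median log2 ratio of -0.99 became -0.57 without the 10 richest cells of each gene and -0.32 under the study's cell filter. Hdc, a fallen member, was found in 936 day 4 cells and was raised in clusters 1 and 9, called neutrophil-like below. The basophil or mast cell-like cluster held 0.50% of cells on day 4 and 0.64% on day 5. Erythroid genes summed to 345 and 349.5 CPM with 0 of 6 called, and of the 2 eosinophil genes at the floor 1 was lower. Their part in the results above was not tested.

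Of the 17 clusters, 8 were called neutrophil-like, 2 granulocyte-monocyte progenitor-like, and 1 each basophil or mast cell-like, monocyte-like, dendritic cell-like and erythroid-like. Clusters 2, 4 and 15 stayed unnamed, the first led by Pid1, Mrc1 and Ccr2, the next by Ppbp, Mt3 and Ptx3, and the last by Mgl2, Asgr2 and Aif1. The thresholds for these names were set after clusters of an earlier session had been seen. The neutrophil-like clusters held 60.1% of cells on day 4 (95% binomial interval, Clopper-Pearson, 58.3 to 61.8) and 49.3% on day 5 (47.4 to 51.2), and the progenitor-like clusters 15.4% (14.1 to 16.7) and 7.69% (6.71 to 8.77). The dendritic cell-like cluster held 3.17% (2.57 to 3.86) and 6.64% (5.73 to 7.65). The clusters were built from genes that differ between the days, so these shares restate those differences and add no separate result. Cluster 4, whose median cell held 31898.5 UMIs on day 4 and 38255 on day 5, took 10.5% of all UMIs on day 4 and 30.5% on day 5, and the neutrophil-like clusters, at 7672.5 and 5903.5 UMIs in the median cell, 35.4% and 17.8%. The cells of cluster 4 therefore weighed most in the summed day 5 values.

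Granule genes were not left out of the clustering, and Camp, Ltf and S100a8 were among the markers that named clusters. Their levels within the neutrophil-like cells are therefore a description and add no separate result. In the neutrophil-like cells Camp was at 11007 CPM on day 4 and 1669.5 on day 5, Ltf at 8847 and 2244, and Cebpe at 362 and 136. Mmp8 was at 1159 and 2911 CPM, and S100a8 at 120630.3 and 99243, so that the ratio of S100a8 within these cells, 0.823, was closer to 1 than its 0.395 in the whole culture. Different clusters made up this class on the 2 days, mainly 1, 7, 6 and 9 on day 4 and 3 and 5 on day 5. In the progenitor-like cells Camp was at 2719 and 784 CPM and Mmp8 at 70.8 and 263, mostly cluster 8 on day 4 and cluster 11 on day 5. Mki67 was at 437 and 368 CPM in these cells, and at 380.0 and 365 in the monocyte-like cluster.

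In the dendritic cell-like cluster Cd74 was at 13216 and 14535 CPM, H2-Ab1 at 2699 and 2016, and Ccr7 at 545 and 584. In the same cluster Ccl24, an eosinophil attractant, was at 12.0 and 189 CPM, from 33 and 912 UMIs, and Ccl5 at 484 and 1282, while Apol7c was at 302 and 114. In cluster 4 Cd74 was at 6730.0 and 8409 CPM, Gpnmb at 2670.1 and 3090.4 and Mmp12 at 12059 and 12007. Ppbp in that cluster was at 211 and 561 CPM, Trem2 at 139 and 252, Ly6a at 40.3 and 215, and Ccl22 at 270.1 and 47.6. In cluster 2 the cytokine genes Inhba and Il1b were at 265 and 306 CPM on day 4 and 48.1 and 94.4 on day 5. In the monocyte-like cluster, which proliferation histone genes led, Marco was at 16.4 and 58.4 CPM and Pf4 at 109 and 409.5.

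Seen against the control library, 164 genes were higher on day 5 in both, which is 41.1% of the 399 with heme and 37.4% of the 438 in control, and 209 were lower in both, which is 38.9% of the 537 with heme and 79.8% of the 262 in control. Among genes with 50 CPM or more in at least 1 of the 4 cultures, the heme change exceeded the control change most in Mpo (by 1.56 on the log2 scale), Gstm2 (1.15), Mmp8 (1.10) and Slc40a1 (1.09). It lay furthest below the control change in Ccl5 (-2.11), Ifi27l2a (-1.93), Fcnb (-1.88) and Mt3 (-1.84). Ifi27l2a, an interferon-inducible gene, was at 108 and 102 CPM with heme and at 96.7 and 349 in control, and Mt3, a metallothionein, at 256 and 348 with heme and at 11.7 and 57.0 in control. Hmox1 had a difference of 0.84. Heme and control cells came from separate libraries, so that treatment and library cannot be told apart in these differences.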

How the data were processed

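Single-cell RNA and hashtag libraries were made with 10x Genomics 3′ chemistry. The deposited matrices hold UMI counts per gene and barcode. The authors made them with Cell Ranger (5.0.0 in the matrix headers, 4.0.0 in the submitters' processing notes, which name GRCm38.p6, R 4.4, Seurat 3.2.3 and Scanpy 1.6.0) and called hashtags with HTODemux. The design text lists exposure times that do not match the harvest days, and the days of the hashtags were used. Mixed-hashtag barcodes were left out, and doublets within 1 culture were not sought.

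The members and gene lists were chosen with earlier results of these data known. Counts were summed per day and scaled to CPM, the sums being 46587383 and 51633887 UMIs. Lists held 476 genes in 30 groups. Genes named are up to 5 members of each list with the largest ratios and 17 preset genes, the 12 highest and 12 lowest ratios and the 8 highest and 8 lowest differences from control at 50 CPM, and the 5 highest and 5 lowest in each class. Other list members, and genes shown within a class outside that rule, were named after their values were seen. Cells were clustered with scanpy 1.11.5 (2000 variable genes, 15 components, 15 neighbours, Leiden resolution 1, igraph 0.11.9), TMM factors came from edgeR 4.0.16, and intervals from scipy 1.17.1. The scripts were tested on simulated counts. Gene positions are from GENCODE M21 (26013 of 26124 identifiers matched) and promoter windows from RefSeq. The alternatives are given in the closing section; sums without each gene's 10 richest cells were added after seeing the data.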

Additional observations from a re-analysis of the deposited data

Results flagged for a closer look

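Among the named genes, 3 were called in opposite directions in the heme and the control library from day 4 to day 5. The log2 change with heme minus that in control was -4.08 for Rsad2, -2.32 for Isg15 and -1.82 for Oas3. With 1 culture per day in each library the difference was not tested. Without the 10 cells of each day that held the most UMIs of the gene, the difference was -2.97 for Rsad2, -1.94 for Isg15 and -1.90 for Oas3, and Isg15, at a log2 ratio of -0.40 with heme, was no longer called. With cells thinned to 2500 UMIs the heme log2 ratio of Oas3 was -0.22, short of 1.5-fold.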

How the results depend on the processing

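With 1 library per group and 1 culture per day, counting intervals leave out the spread between cultures, and no paired analysis was possible because each group was 1 library. The number of genes higher and lower moved from 399 and 537 to 938 and 949 at a floor of 1 CPM, 165 and 218 at 50 CPM, and 121 and 182 at 2-fold. Of 260 list medians under an alternative, 163 stayed within the counting interval of the median, 97 moved and 0 reversed. Medians not counted as reversed could still change sign. The erythroid one ran from -0.52 to 0.57 and that of the integrated stress response from -0.25 to 0.15. The iron median ran from -0.08 to 0.19 and the glycolysis one from -0.10 to 0.07. Under the study's cell filter the medians were 0.90 (MHC class II), -0.51 (primary granule), -1.37 (secondary granule), -0.70 (cell cycle) and -0.32 (basophil). With every cell given equal weight they were 0.89 (MHC class II), 0.65 (macrophage), 0.63 (alternative macrophage), -0.66 (primary), -1.29 (secondary) and -0.32 (basophil). With cells thinned to 2500 UMIs they were 0.66 (macrophage), 0.67 (alternative macrophage), -0.64 (primary), -1.32 (secondary), -0.55 (cell cycle) and -0.35 (basophil). With a hashtag share of 80% or more they were -2.05 (primary), -2.53 (secondary), -0.69 (cell cycle) and -1.44 (basophil). Without the 5% of cells with the most UMIs they were 1.03 (MHC class II), 0.55 (alternative macrophage), -0.94 (primary), -1.92 (secondary) and -0.48 (cell cycle). TMM factors gave -1.96 (secondary), and totals without ribosomal and mitochondrial genes -1.94 (secondary) and -0.82 (basophil). Members at 1 CPM gave 0.90 (MHC class II), 0.59 (alternative macrophage) and -0.61 (basophil). Without the 10 richest cells of each gene, added after seeing the data, they were 1.03 (MHC class II), -1.41 (primary), -2.01 (secondary) and -0.57 (basophil). Of 1467 values of named genes 775 stayed within the counting interval, 688 moved and 4 reversed. The reversed values were Ctsg at 0.26 under the study's filter, and Cyp11a1 at 0.21 under that filter, 0.16 with equal weight and 0.092 after thinning. Some genes not counted as reversed changed sign too, among them Pparg (-0.91 to 0.12), Ear2 (-0.57 to 0.34), Hbb-bs (-0.89 to 0.57) and Mpo (-0.54 to 0.10). The cause was not tested.

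Shares of cell classes moved with the clustering, the cell filter, the hashtag share and the naming. The neutrophil-like difference of -10.8 points was -1.72 at resolution 0.5, -21.7 under the study's filter, -15.4 at a hashtag share of 80% and -19.0 from marker scores. That of the progenitor-like class, -7.71, was -5.17 at resolution 2 and -1.59 at a hashtag share of 80%. The monocyte-like difference of 2.09 was 6.31 at resolution 2, 5.04 with 30 components, 5.46 with the heme, iron and oxidant lists kept in, 5.20 under the study's filter, 4.17 at a hashtag share of 80% and 4.04 from marker scores. The dendritic cell-like difference of 3.47 was 5.25 at a hashtag share of 80%, and the erythroid-like one of -0.14 was 2.80 from marker scores.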
